A study of Mus musculus with 16 samples.

Results

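Microglia that had taken up amyloid-beta 1-42 (Aβ42) were compared between old and young mice, using the 8414 genes, of 35869 in the table (23.5%), whose mean level over the 8 Aβ42+ libraries was at least 20 TPM, a read count per transcript length scaled to the same total in every library. Microglia of wild-type C57/Bl6 mice, Young or Old, were cultured for 2 hours with 2.5 μM of fluorescent Aβ42 and sorted by uptake from live CD45 intermediate, CD11b+ cells, giving 4 libraries each of young Aβ42+ and old Aβ42+ cells, with 4 Aβ42- libraries of each age beside them. Young mice were 2 months old and old mice 18 months old, all male. Replicates are described as pools of 3 mice in one place and as 4 mice of each age in another, so the number of animals behind a library is uncertain. All cells, the Aβ42- ones included, had met the peptide, so no group shows microglia without it, and bulk RNA does not separate fewer cells of a type from less RNA per cell. The cutoff separates no natural classes. Just under it lay Mrpl27 and Elp2, with means of 19.998 and 19.9998 TPM, and just above it Pnmal2 and Rnf185, with 20.003 and 20.004 TPM.

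Microglia are the resident macrophages of the brain. In the healthy brain they carry a program of surface receptors and transcription factors, maintained by signals such as CSF1 and TGF-beta, that distinguishes them from blood-derived macrophages, and they clear debris and protein deposits with receptors such as TREM2, lysosomal hydrolases and an acidifying proton pump. With age and near amyloid plaques, microglia are known to lower parts of that program and to raise genes of lipid handling and lysosomes, the disease-associated pattern.

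Microglial markers were high in all 8 libraries: of 30 genes that mark homeostatic microglia, 29 reached 20 TPM, and their summed level was 6992 to 7756 TPM in young and 4379 to 6243 TPM in old libraries. Other cells that the sort could hold were also visible, and sums for them are given with the young range first. All 13 listed genes of neutrophils and granulocyte precursors were members, with sums of 2921 to 3857 TPM and 3615 to 7018 TPM. In old replicates 1 and 2 these sums (7018 and 6816 TPM) were above those of the microglial genes in the same libraries (6243 and 5570 TPM), and in the other 6 libraries below them. Of 7 monocyte genes 6 were members, with 538 to 894 TPM and 532 to 1586 TPM. Of 10 neuron genes 3 were members (66.1 to 203 TPM and 87.5 to 394 TPM), and of 10 oligodendrocyte genes 4 (102 to 235 TPM and 135 to 362 TPM). Of 8 astrocyte genes 2 were members (58.6 to 113 TPM and 73.4 to 169 TPM). Of 7 B cell genes 1 was (19.3 to 64.2 TPM and 73.3 to 227 TPM), and of 10 T and NK cell genes none (33.5 to 82.1 TPM and 60.6 to 127 TPM). Border macrophage sums were 157 to 227 TPM and 247 to 291 TPM, and erythroid sums 898 to 1849 TPM and 1088 to 1685 TPM. The ranges were 48.4 to 99.7 TPM and 72.9 to 138 TPM for endothelium, 25.1 to 67.9 TPM and 57.3 to 124 TPM for mural cells, and 148 to 321 TPM and 101 to 1112 TPM for choroid plexus and ependyma. No listed marker of these types was at 0 in all 8 libraries.

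The libraries differed in depth and in an even background. Counts recovered from the steps of the TPM values gave 3039236 to 5321398 reads in young and 1920495 to 4643394 reads in old libraries (exact two-sided permutation test, p = 0.286). The background level, the trimmed mean of olfactory and vomeronasal receptor genes that microglia are not known to use, was 0.78, 3.39, 6.88 and 2.78 TPM in young and 1.27, 5.24, 11.6 and 4.98 TPM in old replicates 1 to 4. Members held 77.8 to 91.4% of the total in young and 65.6 to 88.7% in old libraries, a mean difference of -6.15 percentage points (exact two-sided permutation test, p = 0.371). Replicate 3 of each age was thus the shallowest library with the highest background, and results are given with and without both where they differ.

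**Figure D1:**
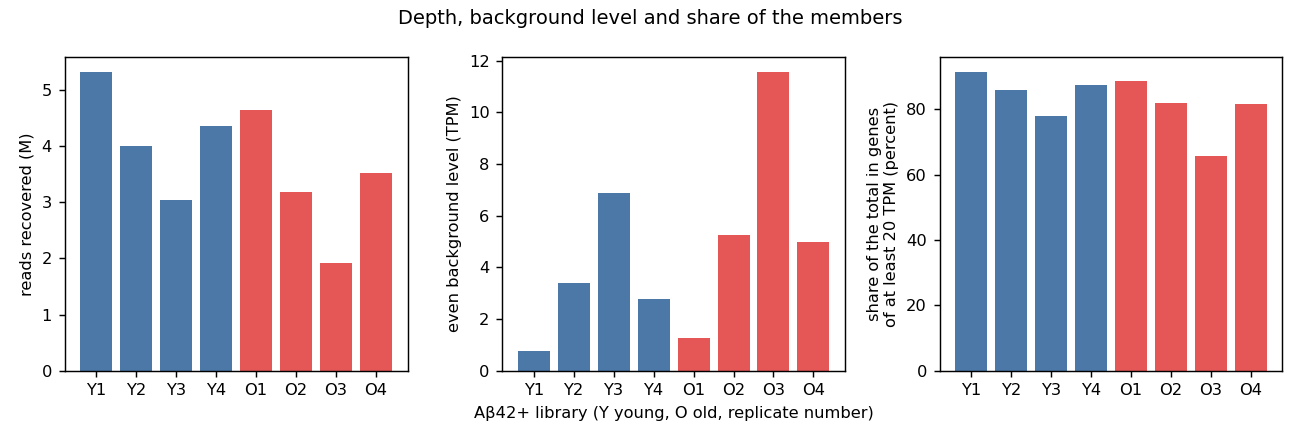
Reads recovered (in M), even background level (TPM) and share of the TPM total in genes of at least 20 TPM (percent) for each Aβ42+ library, young in blue (Y) and old in red (O), 1 bar a library. Old replicate 3 has the fewest reads (1920495), the highest background (11.6 TPM) and the lowest share (65.6%).

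Of the 8408 members that could be tested, 3 passed an adjusted p of 0.05 (0.0357%, against 9 of 33578 genes, or 0.0268%, in the whole table), and all 3 were higher in old cells (0.0357%, against 0.0208% of all tested genes higher and 0.00596% lower). Ube2c, a ubiquitin-conjugating enzyme that acts at the exit from mitosis, and the microRNA genes Mir181b-2 and Mir7673 were these. The microRNA genes were at 0 in every young library and entered the test through the old group alone, so that Ube2c is the only call with reads in both groups and no direction is read from the count of 3. At an unadjusted p under 0.05, which is no call, 637 members were higher in old cells (7.58%, against 4.7% of all tested genes) and 1299 were lower (15.4%, against 4.52%). The values of young and old libraries did not overlap for 339 members higher in old cells (4.03%, against 2.85% of all tested genes) and 631 lower (7.5%, against 2.65%). The median log2 fold change of the members was -0.13, against 0.38 over all tested genes, which include those near the background level. That level had a mean of 3.46 TPM in young and 5.76 TPM in old libraries (exact two-sided permutation test, p = 0.4). By level, the median was 0.05 for the 4172 members of 20 to 50 TPM, -0.21 for the 2024 of 50 to 100 TPM, -0.30 for both the 1264 of 100 to 200 TPM and the 749 of 200 to 500 TPM, and -0.10 for the 199 above 500 TPM. The split between higher and lower depended on the scaling: the higher genes were 32.9% of those with an unadjusted p under 0.05, but 43.4% with TMM factors, which moved the median to 0.01, and 18.4% with upper quartile factors, which moved it to -0.35. With both replicates 3 left out, a choice made after the data were seen, 601 of 8367 members passed the adjusted threshold (7.18%, against 2.11% of all tested genes), 298 of them higher in old cells, and with old replicate 3 alone left out 39 passed. Leaving out any other single library left 0 to 2 members called.

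**Figure D2:**
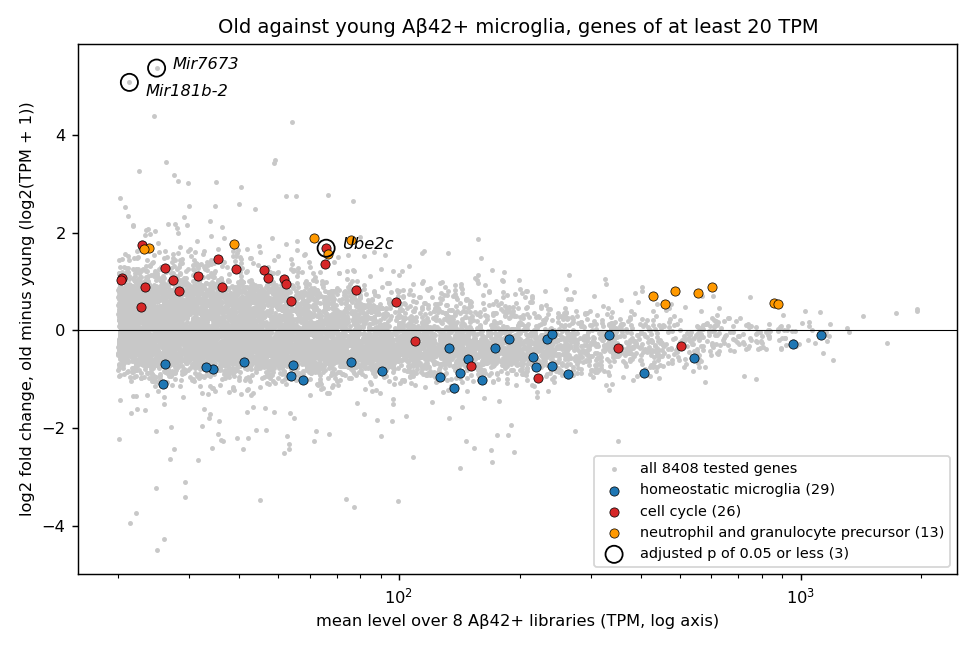
Log2 fold change of old against young Aβ42+ microglia on the log2(TPM + 1) scale against the mean level over the 8 libraries (TPM, log axis), 1 point a gene, with 3 gene lists in colour and the 3 called genes circled. Homeostatic microglia genes (29, blue) all lie below 0, the 13 granulocyte genes (orange) all above it, and 21 of the 26 cell cycle genes (red) above it.

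Both microRNA calls rested on few reads, and their mature products are shown because the sequences tell which of them share a locus or a seed. The libraries were made from polyA RNA with reads longer than these products, so the level of the mature products was not measured. The seed, bases 2 to 8, which pairs with target mRNAs, is in capitals, 5′ to 3′, from RefSeq on GRCm38.p6 (mm10).
mmu-miR-181b-5p: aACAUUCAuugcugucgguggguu
mmu-miR-181b-2-3p: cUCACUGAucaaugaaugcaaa
mmu-miR-7673-5p: uUUGACUGagagguaaggaaug
mmu-miR-7673-3p: uUCCUUACcucaccgucaaagga
The first of these, from chr2:38853845-38853868 (plus strand), is the same in Mir181b-1 on another chromosome, and 4 mature mouse sequences in the table carry its seed. Mir181b-1 had 0, 1, 3 and 0 reads in young and 0, 0, 3 and 2 reads in old Aβ42+ libraries. The absence of Mir181b-2 reads in young cells thus does not show that this mature product was absent there. The 89-base hairpin of Mir181b-2 (chr2:38853830-38853918) lies within the gene Nr6a1 and its antisense RNA Nr6a1os, and the 64-base hairpin of Mir7673 (chrX:94274574-94274637, plus strand) within Klhl15. Reads of the 2 hairpins and of the genes around them cannot be fully told apart here.

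Mir181b-2 was at 0 TPM in all 4 young libraries and at 11.9, 32.2, 97.2 and 29.1 TPM in the old libraries 1 to 4, which is 0 reads of 16724341 against 9 reads of 13268137. It passed the filter of 4 libraries with at least 1 TPM, and the level of 20 TPM, through the old group alone, so its call was largely set by the filter and no support is drawn from it. Against a floor of 3 reads over the young group, the old level was 3.78-fold higher. That ratio leaves out the counting error of the 9 old reads, so it is no lower limit. Mir7673 was likewise at 0 TPM in the young and at 33.2, 112, 33.8 and 20.2 TPM in the old libraries. It again had 9 reads in all, 3.78-fold over the same floor with the same limit, and it too passed the filter through the old group alone. In the Aβ42- libraries Mir181b-2 had 1 read in 3 of the 4 young and none in the old, and Mir7673 had reads in 3 of the 4 young and in all 4 old libraries. Of the 16 alternatives that could be fitted, Mir181b-2 was called in 7 and Mir7673 in 10. Both were lost without any 1 of the young libraries, with the replicate block and with voom on recovered reads, and without any 1 of the old libraries both were under the filter. Mir181b-2 was also lost with TMM factors, with members scaled to 1 total and with a mean of at least 5 TPM. Few reads were general among short RNA members: 319 of 541 (59.0%) had 10 reads or fewer in their highest library, against 33 of 7867 other members.

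Genes of the dividing cell were higher in old Aβ42+ microglia as a group. Of 26 cell cycle members, 19 were higher and 2 lower in old cells at an unadjusted p under 0.05, and their median log2 fold change was 0.99, against -0.13 over all members, with 1 gene (Ube2c) called. Ube2c (chr2:164769929-164772902) stood at 24.5, 29.5, 37.9 and 32.3 TPM in young and at 107, 105, 95.5 and 94.7 TPM in old libraries. Its 4 old values lay close together and far above the young ones (31.1 ± 5.61 against 101 ± 6.47 TPM, SD, n = 4). The log2 fold change was 1.68 (SE 0.17, adjusted p = 0.0182), with 94 reads in the young and 271 in the old libraries. The call held without young or without old replicate 3 and was lost without any 1 of the other 6 libraries (adjusted p from 0.0801 to 0.203). It was also lost with voom on recovered reads (adjusted p = 0.132), upper quartile factors (0.153), no mean-variance trend (0.138), the replicate block (0.0531) and the background subtracted (0.0520). The call thus held in 10 of 21 alternatives, while the log2 fold change of Ube2c stayed between 1.46 and 1.85 in all 21 alternatives.

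Ccnb1, the cyclin that drives entry into mitosis with the kinase Cdk1, was at 8.12, 8.08, 13.2 and 9.49 TPM in young and at 55.0, 39.1, 27.1 and 23.5 TPM in old libraries. The groups did not overlap, but the old values spread widely (log2 fold change 1.74, SE 0.30, adjusted p = 0.260). Plk1, a kinase of spindle assembly, was at 12.96, 15.8, 29.8 and 17.8 TPM against 57.1, 50.6, 50.9 and 48.6 TPM (1.46, SE 0.25, adjusted p = 0.244). Cdk1 itself was at 11.1, 14.8, 15.5 and 17.4 TPM against 31.9, 40.2, 51.5 and 27.2 TPM (1.28, SE 0.25, adjusted p = 0.330). All 3 genes were thus higher in each old library than in any young one, without passing the adjusted threshold. Ccnb1 was named by a rule that required this. Replication genes had the same direction, such as Rrm1 and Rrm2, the subunits of ribonucleotide reductase (log2 fold changes of 1.07 and 1.36), and the helicase subunits Mcm4 and Mcm5 (0.95 and 1.04). Mki67, the common proliferation marker, had a log2 fold change of 1.08 with an unadjusted limma p of 0.055. The list held genes of the opposite direction as well. Ccnd1, the cyclin of the start of the cycle, was at 141 to 211 TPM in young and 66.6 to 147 TPM in old libraries (-0.74, SE 0.26, adjusted p = 0.484), and its partner Cdk6 was lower too (-0.98). Without both replicates 3, 13 of the 26 genes passed the adjusted threshold, all higher, Ccnb1 (2.00, adjusted p = 0.0405) and Plk1 (1.69, adjusted p = 0.0330) among them. In that setting, chosen after the data were seen, 7.18% of all members and 2.11% of all tested genes passed. Hist1h4n, a replication-dependent histone H4 gene and among the 12 largest differences upward, was at 5.42, 6.83, 25.2 and 25.3 TPM against 52.3, 35.4, 65.2 and 56.7 TPM (1.94, SE 0.49, adjusted p = 0.416); histone H4 genes are near-identical copies, so its value is uncertain.

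The sequences just before the start sites of Ube2c and the 3 mitotic genes above are shown because promoters of such genes are known for paired CCAAT boxes and for a cell cycle homology element near the start. Each line gives the 150 bases before the RefSeq start on the gene's strand, 5′ to 3′, GRCm38.p6, with the CCAAT box and the letters TTTGAA or those of TTTAAA in capitals where they lie on either strand.
Ube2c, chr2:164769779-164769928 (+): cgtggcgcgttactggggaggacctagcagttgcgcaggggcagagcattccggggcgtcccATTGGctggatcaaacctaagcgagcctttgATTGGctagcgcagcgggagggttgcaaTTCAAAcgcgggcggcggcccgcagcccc
Ccnb1, chr13:100786487-100786636 (-): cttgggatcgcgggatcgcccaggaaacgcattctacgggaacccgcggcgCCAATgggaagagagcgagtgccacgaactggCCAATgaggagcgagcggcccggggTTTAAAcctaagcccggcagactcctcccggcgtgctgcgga
Plk1, chr7:122159285-122159434 (+): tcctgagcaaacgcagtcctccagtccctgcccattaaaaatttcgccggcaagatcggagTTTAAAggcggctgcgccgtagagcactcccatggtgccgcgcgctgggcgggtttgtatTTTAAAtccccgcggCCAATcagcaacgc
Cdk1, chr10:69352913-69353062 (-): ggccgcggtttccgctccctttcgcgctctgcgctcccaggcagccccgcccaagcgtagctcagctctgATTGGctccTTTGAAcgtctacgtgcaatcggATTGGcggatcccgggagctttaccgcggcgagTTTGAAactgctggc
All 4 windows held CCAAT on 1 strand or the other and at least 1 of the other motifs. Of the 17 cell cycle genes that were higher in old cells at an unadjusted p under 0.05 and had a window, 14 (82.4%) held CCAAT and 8 (47.1%) TTTGAA or TTTAAA, against 24.5% and 14.7% of all 32851 windows of this length. Of all 23 cell cycle members with a window, 17 (73.9%) and 9 (39.1%) did. A cell cycle gene counted if any of its windows held the motif, while the shares of all windows count each window by itself. The shares are thus unlike measures, and a gene with several windows had more chances of a match. A match is a description of letters and shows no binding.

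Granulocyte genes were higher in old cells beside the cell cycle genes. All 13 listed genes of neutrophils and their precursors had higher means in old cells, 12 of them at an unadjusted p under 0.05, with a median log2 fold change of 0.88 and none called. The 6 largest differences, log2 fold changes of 1.57 to 1.88, were those of Prtn3, Elane, Fcnb, Ctsg, Ms4a3 and Mpo, which are known from granulocyte precursors, and the other 7, genes of later granules and the cytosol such as Lcn2 and S100a9, lay between 0.54 and 0.88. Mpo, the myeloperoxidase of these granules, was at 24.1, 28.4, 39.7 and 24.5 TPM in young and at 219, 89.1, 51.0 and 56.5 TPM in old libraries (log2 fold change 1.57, SE 0.42, adjusted p = 0.416). Elane, neutrophil elastase, was at 16.1, 27.1, 38.4 and 22.7 TPM against 296, 93.8, 30.6 and 83.2 TPM (1.85, SE 0.59, adjusted p = 0.458). Old replicate 1 was by far the highest in both, and for Elane old replicate 3 lay within the young range. Ctsg, the granule protease cathepsin G, was at 10.9, 3.75, 12.3 and 13.9 TPM against 77.8, 30.3, 19.6 and 22.1 TPM (1.67, SE 0.50, adjusted p = 0.436). Ms4a3, a membrane protein that marks granulocyte-monocyte progenitors, was at 7.85, 6.19, 12.2 and 12.6 TPM against 75.9, 22.8, 23.6 and 24.4 TPM (1.66, SE 0.42, adjusted p = 0.416). S100a8, a calcium-binding protein abundant in mature neutrophils, differed less, with 667, 709, 840.4 and 652 TPM against 1042, 1251, 893 and 989 TPM (0.54, SE 0.17, adjusted p = 0.461), though its groups did not overlap. Without old replicate 1 the list's median was 0.76 with 10 genes at an unadjusted p under 0.05. Without both replicates 3 it was 1.21 with 9 genes passing the adjusted threshold, as did 7.18% of all members and 2.11% of all tested genes. The cell cycle list's median was 0.88 without old replicate 1, with 18 genes higher. Granulocyte precursors are known to divide, and their part in the cell cycle difference was not tested.

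**Figure D3:**
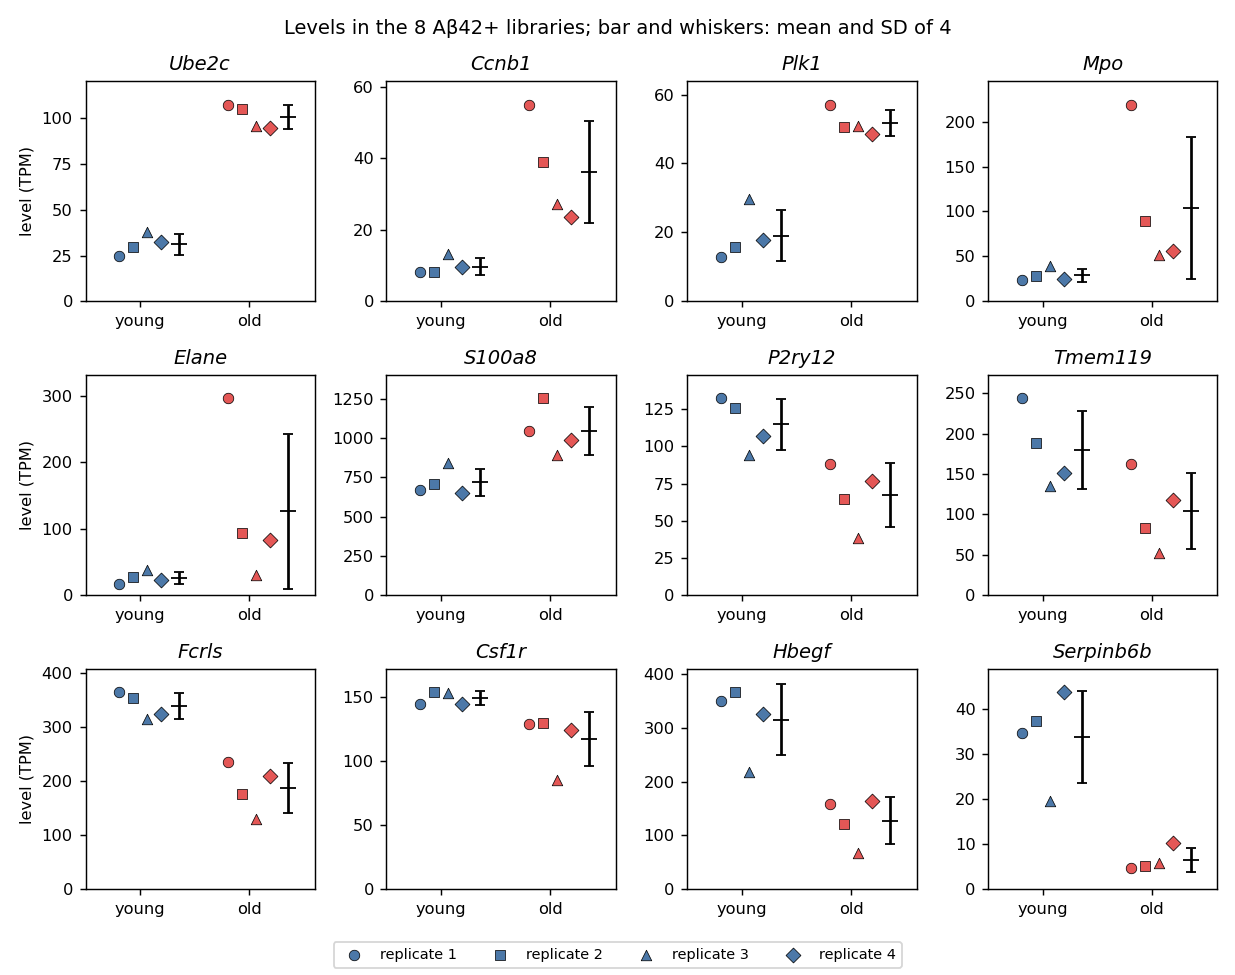
Level (TPM, linear axes from 0) of 12 genes in the 4 young (blue) and 4 old (red) Aβ42+ libraries, with marker shapes for the replicate numbers and a bar with whiskers for the mean and SD of 4. Ube2c and Plk1 show tight old values above all young ones, Mpo and Elane are led by old replicate 1 (219 and 296 TPM), and the microglia genes are lowest in old replicate 3.

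Several of the largest differences upward among other genes belong to neutrophils or blood as well. Orm1, an acute-phase protein, was at 15.3, 4.81, 15.8 and 10.4 TPM in young and at 135, 96.0, 27.8 and 45.0 TPM in old libraries (log2 fold change 2.48, SE 0.52, adjusted p = 0.376). Mrgpra2a and Mrgpra2b, receptors that neutrophils carry, had log2 fold changes of 2.31 and 2.23 (SE 0.52 and 0.46); the 2 are near-identical copies, and their reads may be split between them. Serpinb1a, an inhibitor of neutrophil proteases, was at 13.9 to 18.4 TPM in young and 19.5 to 105 TPM in old libraries (1.63). Lrg1, a secreted glycoprotein of neutrophils and endothelium, was at 28.5 to 53.3 TPM against 84.3 to 216 TPM (1.61). In all 5 genes old replicate 1 was the highest library. Cd79a, a subunit of the B cell receptor, was at 7.46, 13.2, 21.96 and 21.8 TPM against 31.2, 37.9, 99.6 and 49.8 TPM (1.67, SE 0.43, adjusted p = 0.416), and here old replicate 3 was the highest. Mt3, a metallothionein of neurons and astrocytes, and Clic6, a chloride channel protein of the choroid plexus, reached 127 and 184 TPM in old replicate 1 alone, against 7.38 to 40.4 TPM and 8.99 to 31.2 TPM in the other 7 libraries. F13a1, a factor XIII subunit of border macrophages and monocytes, and Ccr2, the chemokine receptor of blood monocytes, overlapped between ages (0.94 and 0.84, adjusted p = 0.522 and 0.513). The other 2 border macrophage members had lower means, Mrc1 with -0.31 and Pf4 with -0.20. Without both replicates 3, F13a1 and Ccr2 passed the adjusted threshold (1.504, adjusted p = 0.0339, and 1.29, adjusted p = 0.0371). Of the 6 monocyte members 5 passed there, all higher, against 7.18% of all members and 2.11% of all tested genes.

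Genes of the homeostatic microglial program were lower in old Aβ42+ cells. All 29 members had lower means, 20 of them at an unadjusted p under 0.05, with a median log2 fold change of -0.71 against -0.13 over all members, and none was called. Their median level was 148 TPM, and of all members of 100 to 200 TPM 21.6% were lower at that p, with a median of -0.30. Their summed level was 7445 ± 348 TPM in young and 5537 ± 820 TPM in old libraries (SD, n = 4). Fcrls, an Fc receptor-like protein known from mouse microglia, was at 364, 352, 314 and 324 TPM in young and at 236, 176, 129 and 209.5 TPM in old libraries (-0.88, SE 0.20, adjusted p = 0.402). P2ry12, the purine receptor that steers microglial processes, was at 132, 126, 94.5 and 107 TPM against 88.5, 64.6, 38.3 and 76.7 TPM (-0.82, SE 0.26, adjusted p = 0.452). In both genes the highest old value lay under the lowest young one, and old replicate 3 was lowest. Tmem119, a membrane protein used as a microglia marker, overlapped between the ages, with 244, 188, 135 and 152 TPM against 162, 83.5, 52.2 and 118 TPM (-0.87, SE 0.34, adjusted p = 0.513). Cx3cr1, the receptor of the neuronal chemokine fractalkine, was at 277, 251, 222 and 251 TPM against 224, 194, 98.5 and 205 TPM, overlapping by a single pair of values (-0.53, SE 0.25, adjusted p = 0.560). Among the transcription factors of the program, Sall1, a microglial identity factor, had a log2 fold change of -0.79 and Irf8, needed for microglia to form, of -0.75, while Spi1, which encodes PU.1, had one of -0.17. The direction did not depend on old replicate 3: without it the list's median was -0.49 with 22 genes lower and 1 higher at an unadjusted p under 0.05, and without both replicates 3 it was -0.55 with 24 lower, of which 2 passed the adjusted threshold. In that last setting 7.18% of all members and 2.11% of all tested genes passed. Over all 21 alternatives the median lay between -0.93 and -0.49. In a mixture, a higher share of other cells lowers the share of every microglial transcript, so the higher granulocyte sums in old libraries stand beside this list too, and their part in it was not tested.

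Receptors that maintain microglia were lower in the main. Of 13 members among CSF, TGF-beta and purine receptors, 7 were lower and 1 higher at an unadjusted p under 0.05 (median log2 fold change -0.65). By their means 10 were lower and 3 higher. The median level of the list was 92.7 TPM. Of all 2024 members of 50 to 100 TPM, 364 were lower at that p, with a median of -0.21. At least P2ry13 also belongs to the homeostatic list, so the receptors are not independent of that list. Csf1r, the receptor on which microglial survival depends, was at 145, 154, 154 and 145 TPM in young and at 129, 130, 85.5 and 124 TPM in old libraries, without overlap (-0.37, SE 0.17, adjusted p = 0.548). P2ry13, an ADP receptor, was at 262, 209.6, 119 and 166 TPM against 124, 66.4, 49.7 and 99.4 TPM (-1.17, SE 0.33, adjusted p = 0.424), overlapping by 1 library. Tgfbr1, a TGF-beta receptor subunit, was at 156 to 189.6 TPM against 81.6 to 147 TPM (-0.59, SE 0.19, adjusted p = 0.468). The gene higher at that p was Nt5e, the ectonucleotidase CD73 that makes adenosine, at 14.1, 18.1, 18.4 and 8.39 TPM against 64.9, 54.5, 19.96 and 28.9 TPM (1.36, SE 0.40, adjusted p = 0.430). Smad7, a feedback inhibitor of TGF-beta signalling, was at 280.2 to 341 TPM in young and 128 to 245 TPM in old libraries (-0.68, SE 0.22, adjusted p = 0.459).

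The largest differences downward, taken only among genes without overlap between the ages, lay outside these lists. P2ry13, which belongs to both lists, overlapped and so could not be among them, with a log2 fold change of -1.17. Serpinb6b, an intracellular serpin with several close relatives in the mouse, was at 34.6, 37.4, 19.5 and 43.8 TPM in young and at 4.57, 5.15, 5.83 and 10.2 TPM in old libraries (log2 fold change -2.22, SE 0.33, adjusted p = 0.140). Its old values were near the background level, so the fold is on the log2(TPM + 1) scale and is smaller than the ratio of the means. Cd276, a checkpoint protein of the B7 family, was at 310.3, 262, 157 and 306 TPM against 129, 76.8, 57.6 and 125 TPM (-1.43, SE 0.31, adjusted p = 0.393). Hbegf, a growth factor of the EGF family, was at 349.9, 367, 219 and 325 TPM against 157, 120, 67.5 and 165 TPM (-1.35, SE 0.30, adjusted p = 0.393). Peg10, an imprinted gene derived from a retrotransposon, was at 44.3, 43.7, 29.3 and 34.1 TPM against 13.6, 11.6, 15.3 and 15.5 TPM (-1.36, SE 0.21, adjusted p = 0.155). In these 4 genes no old library reached the lowest young value, which the rule that named them required. Each passed the adjusted threshold of limma once both replicates 3 were left out (adjusted p from 0.0339 to 0.0377). That setting was chosen after the data were seen, so it is no independent evidence. Smaller differences, picked by the same rule of no overlap, were those of Gimap6, a GTPase of immune cells (-1.29), Nckap5l (-1.27), Fam83g (-1.22), the kinase gene Cdk18 (-1.22), the fatty acid binding protein gene Fabp3 (-1.21), Kctd6 (-1.20), Agmo, which cleaves ether lipids (-1.17), and the matrix protein gene Npnt (-1.15). Olfr111, an olfactory receptor gene chosen after its values were seen, stood apart from the receptor genes that set the background level, with 43.3, 32.3, 19.7 and 38.3 TPM in young and 11.8, 9.78, 6.09 and 10.7 TPM in old libraries (-1.68, SE 0.30, adjusted p = 0.312).

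Phagocytic receptors stood near other genes of their level. Of 28 members, 7 were lower and 1 higher at an unadjusted p under 0.05, and the median log2 fold change was -0.33, or -0.56 to -0.11 over the alternatives. The list's median level was 120.4 TPM, and all members of 100 to 200 TPM had a median of -0.30 with 21.6% lower, so the list is not set apart from them. Trem2, a lipid and Aβ receptor, was at 313, 291, 248 and 280.4 TPM in young and at 224, 193, 124 and 235 TPM in old libraries (-0.58, SE 0.21, adjusted p = 0.497), without overlap. Its signalling partner Tyrobp did not follow it, at 823, 851, 829 and 801 TPM against 863, 957, 672 and 869.8 TPM (0.01, SE 0.16, adjusted p = 0.966). Mertk, a receptor for dying cells, was at 178, 138, 99.1 and 121 TPM against 103, 63.4, 32.3 and 67.6 TPM (-1.08, SE 0.33, adjusted p = 0.441). The scavenger receptor Stab1 was at 191 to 292 TPM against 65.5 to 180.4 TPM (-0.98, SE 0.29, adjusted p = 0.436). The scavenger receptor Msr1 was on the other side, with 27.6, 31.2, 43.7 and 38.4 TPM against 65.9, 104, 31.2 and 69.5 TPM (0.83, SE 0.34, adjusted p = 0.524). It passed the adjusted threshold without both replicates 3 (1.26, adjusted p = 0.0445), while Trem2 had an adjusted p above 0.05 there as well. Of 8 complement members 2 were lower and 1 higher at an unadjusted p under 0.05. C1qb, a chain of C1q, was at 850.4 to 904 TPM in young and 616 to 796 TPM in old libraries (-0.27, SE 0.15, adjusted p = 0.597). C3ar1, the C3a receptor, was at 486 to 547 TPM against 248.7 to 407 TPM (-0.60, SE 0.18, adjusted p = 0.449). Cfp, properdin, which neutrophils and monocytes store, was at 75.6, 89.99, 114 and 98.98 TPM against 304, 270, 72.8 and 227 TPM (1.03, SE 0.41, adjusted p = 0.520), and passed once old replicate 3 was left out (1.49, adjusted p = 0.0285).

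The disease-associated genes were split. Of 29 members, 14 had higher and 15 lower means in old cells, 1 and 3 at an unadjusted p under 0.05, with a median log2 fold change of -0.09 that turned to 0.06 with TMM factors. Gpnmb, a glycoprotein of lysosomes and phagosomes, was at 110.4, 97.5, 173 and 145 TPM in young and at 258, 299, 129 and 239 TPM in old libraries (0.78, SE 0.29, adjusted p = 0.497). Apoe, the lipid carrier, was at 178, 183, 210.2 and 192 TPM against 201, 237, 266 and 217 TPM (0.26, SE 0.14, adjusted p = 0.586). For Gpnmb 3 old libraries lay above all young ones and replicate 3 within them, and without both replicates 3 the gene passed the adjusted threshold (1.18, adjusted p = 0.0370).

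Genes of uptake and degradation had lower means in the main, as had other genes of their level: of all members, medians were -0.21 at 50 to 100 TPM and -0.30 at 100 to 500 TPM, and 15.4% of members at any level were lower at an unadjusted p under 0.05. Of 45 lysosomal hydrolase and membrane protein members, 41 had lower means in old cells, 7 at an unadjusted p under 0.05 (median -0.28). Ctso, a cysteine cathepsin, was at 54.4 to 74.7 TPM in young and 35.0 to 49.3 TPM in old libraries (-0.58, SE 0.17, adjusted p = 0.436). All 16 subunits of the vacuolar ATPase, the proton pump that acidifies lysosomes, had lower means, 2 at an unadjusted p under 0.05 (median -0.34). Tcirg1 was at 195 to 232 TPM against 94.3 to 174 TPM (-0.55, SE 0.21, adjusted p = 0.503). Of 36 members of clathrin coats, ESCRT, retromer and HOPS, 34 had lower means and 6 an unadjusted p under 0.05 (median -0.37). Cltb, a clathrin light chain, was at 162, 174, 128 and 172 TPM against 120.02, 99.1, 66.7 and 113 TPM (-0.69, SE 0.21, adjusted p = 0.436). Of 33 Rab GTPases, which direct vesicles, 4 were lower at an unadjusted p under 0.05 (median -0.34), led by Rab40c (-0.62). Of 42 genes of actin remodelling 4 were lower at that p (median -0.18), led by Wasl, an activator of actin branching (-0.64). Without old replicate 3 these medians were -0.10 for the hydrolases, -0.14 for the ATPase, -0.19 for the coats, -0.12 for the Rab genes and -0.01 for actin remodelling, while that of all members was -0.03. Of 37 proteasome members 28 had lower and 9 higher means (median -0.21), with 1 each way at an unadjusted p under 0.05. These were Psmb9, an immunoproteasome subunit (0.57, SE 0.16), at 31.5 to 46.1 TPM against 54.8 to 60.3 TPM, and Psmd12 of the regulatory particle (-0.55, SE 0.23), with adjusted p = 0.424 and 0.531.

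Rapid response genes had lower means in old cells. Members of 200 to 500 TPM, where the median levels of both lists lay (331 TPM and 328 TPM), had a median of -0.30 with 21.6% lower at an unadjusted p under 0.05. Of 25 immediate early genes, 24 had lower means, 10 at an unadjusted p under 0.05 (median log2 fold change -0.38). Fosb, an AP-1 subunit, was at 149, 169, 125 and 143 TPM in young and at 109.8, 77.9, 64.3 and 95.0 TPM in old libraries (-0.77, SE 0.19, adjusted p = 0.416). All 24 chaperone genes had lower means, 8 at an unadjusted p under 0.05 (median -0.31). Hspb1, a small heat shock protein, was at 712, 728, 714 and 609 TPM against 564, 414, 274 and 447 TPM (-0.74, SE 0.22, adjusted p = 0.436). The abundant Hsp90ab1 was at 999.8 to 1187 TPM against 955 to 985 TPM (-0.21, SE 0.15, adjusted p = 0.631). Both lists are known to answer to dissociation, digestion and culture, which all groups here had. Of 43 inflammatory cytokine and signalling genes 34 had lower and 9 higher means (median -0.33), with 6 lower and 1 higher at an unadjusted p under 0.05, the latter Irak3, an inhibitor of Toll-like receptor signalling (0.76, SE 0.34, adjusted p = 0.541). Among 20 chemokines and receptors, Ccl12, a monocyte attractant, was at 268, 208, 155 and 188 TPM against 121, 77.9, 68.9 and 136 TPM (-1.04, SE 0.26, adjusted p = 0.416). Cxcr2, the chemokine receptor of neutrophils, was at 13.1, 19.7, 26.2 and 12.4 TPM against 86.8, 51.0, 22.7 and 30.5 TPM (1.25, SE 0.42, adjusted p = 0.470).

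Antigen presentation and interferon response genes differed little with all 8 libraries in the fit. The medians of class II, interferon, lipid, glycolysis, autophagy, amyloid, ribosomal and respiratory genes changed sign under at least 1 other scaling. No class II gene of 8 had an unadjusted p under 0.05 (median log2 fold change 0.17); H2-Aa, a class II alpha chain, was at 622, 464, 597 and 528 TPM in young and at 638, 678, 694 and 725 TPM in old libraries, without overlap (0.31, SE 0.15, adjusted p = 0.570). At the same p, 1 of 15 class I members was lower, Canx, the chaperone calnexin (-0.38), and 1 of 32 interferon response genes was higher, Ifi27l2a (0.41). Sums of the listed interferon genes were 2841 to 3528 TPM in young libraries and 3747, 4124, 2305 and 4055 TPM in old replicates 1 to 4. Over the alternatives 0 to 8 interferon genes were higher at that p. In Aβ42- cells their median was 0.42, with 14 of 32 higher and 0 lower at that p. In metabolism, 60 of 76 respiratory chain and ATP synthase genes had higher and 16 lower means (median 0.18), 9 of them higher and none lower at an unadjusted p under 0.05, and none was called. Uqcr10, a complex III subunit, was at 53.7, 36.8, 46.2 and 48.8 TPM against 102, 77.9, 58.0 and 80.7 TPM (0.75, SE 0.20, adjusted p = 0.416). That median turned to -0.05 with upper quartile factors and was 0.36, with 39 genes higher at that p, without old replicate 3. Of 84 cytosolic ribosomal protein genes 67 had higher and 17 lower means (median 0.10). Without overlap 11 were higher and 1 lower, against 4.03% higher and 7.5% lower of members and 2.85% and 2.65% of all tested genes. At an unadjusted p under 0.05, 1 was lower and none higher (0 to 24 higher over the alternatives). Of 17 glycolysis genes 2 were lower at that p, with Slc16a1, a lactate transporter, at 66.1 to 82.2 TPM against 48.9 to 57.4 TPM (-0.42). Of 25 autophagy genes 2 were higher and 1 lower at that p, with Wipi1, a protein of forming autophagosomes, at 27.5 to 39.2 TPM against 46.8 to 53.0 TPM (0.55, SE 0.16, adjusted p = 0.430). Of 25 redox and iron genes 4 were lower at that p, led by Gclc, the rate-limiting enzyme of glutathione synthesis, at 275, 279, 208 and 292 TPM against 184, 161, 83.0 and 178 TPM (-0.85, SE 0.26, adjusted p = 0.450). Of 14 amyloid processing genes 1 was higher at that p, Sorl1, a sorting receptor of the amyloid precursor, at 48.9 to 65.1 TPM against 216, 137, 48.8 and 90.9 TPM (0.88, SE 0.39, adjusted p = 0.541).

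**Figure D4:**
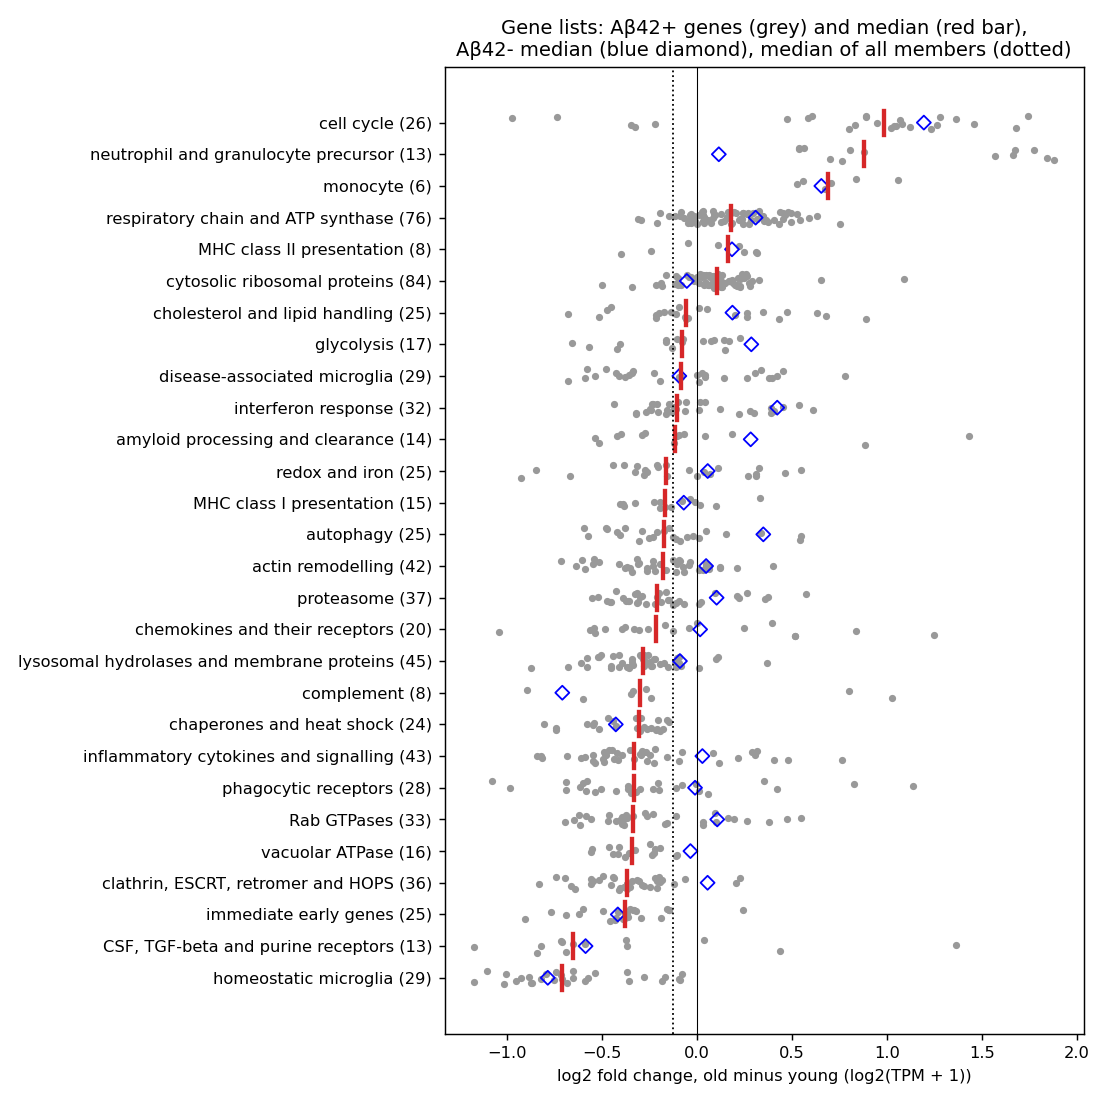
Log2 fold change of old against young on the log2(TPM + 1) scale for gene lists of at least 6 members (number in brackets). Grey points are genes in Aβ42+ microglia, red bars their medians, blue diamonds the medians of the same genes in Aβ42- microglia, and the dotted line the median of all members (-0.13). The cell cycle list lies highest (0.99) and the homeostatic list lowest (-0.71).

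The same genes were set beside the Aβ42- libraries of the same pools to ask whether age acted otherwise in cells that had not taken up Aβ42. In Aβ42- cells 444 of 8379 members passed the adjusted threshold (5.3%, against 2.15% of all tested genes), 365 of them higher (4.36%, against 1.73%). The homeostatic list had a median of -0.78 there, against -0.71 in Aβ42+ cells, and the cell cycle list of 1.20, against 0.99. For granulocyte genes the medians were 0.12 and 0.88, with mean sums in Aβ42- cells of 8750 TPM in young and 10517 TPM in old libraries. Ube2c had means of 71.5 TPM (young) and 197 TPM (old) in Aβ42- libraries, a log2 fold change of 1.41 (SE 0.30, adjusted p = 0.0486), and its interaction was 0.27 (adjusted p = 0.573).

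The interaction of age and uptake itself, tested over all 16 libraries without the pool as a block, was called for 2 of 8414 members (0.0238%, against 0.0116% of all tested genes). These were Mir181b-2 and Mir6395, both with few reads. That fit leaves out the pairing of the sorts by pool, so its 2 calls do not show that age acted alike in both sorts. Mir6395, a microRNA gene, was at 65.2, 68.5, 16.8 and 38.1 TPM in young and at 11.7, 0, 0 and 0 TPM in old Aβ42+ libraries, with at most 6 reads in a library, while its means in Aβ42- cells were 3.45 TPM in young and 38.2 TPM in old libraries (interaction -8.79). With the pool, from which both sorts of a replicate came, as a block, 2512 members were called (29.9%, against 36.9% of all tested genes), a share below that of the whole table, so this count tells nothing particular about the members. At an unadjusted p under 0.05 and without the block there were 2031 (24.1%). The share of all tested genes at this cutoff was not counted, so nothing about the members is read from that number either. For P2ry12, Trem2 and Mpo, which do not stand for the members at large, the interaction did not pass either fit, with differences of 0.12, 0.40 and 0.92 on the log2 scale and adjusted p with the block of 0.783, 0.359 and 0.104. The mean background level was 3.46 TPM (young) and 5.76 TPM (old) in Aβ42+ libraries and 3.68 and 1.31 TPM in Aβ42- libraries, and its part in the interaction was not tested.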

How the data were processed

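Sorted young and old Aβ42+ microglia were measured by directional polyA RNA-seq with single 85-base reads. According to the study's methods and the submitters' processing notes, the authors trimmed reads (Trim Galore 0.4.2, cutadapt 1.9.1), aligned them to mm10 with STAR 2.5.2a, removed duplicates with Picard 1.89 and counted RefSeq genes. The strand setting is not given in the sources used here. The deposited values are TPM, made by the authors from raw counts. Removing duplicates of single reads limits how many reads a gene can keep (at most 1.39 to 1.81 reads per base in these libraries), which bears on the highest genes. Genes at 1 TPM or more in at least 4 of the 8 libraries (33578) were tested with limma 3.58.1 in R 4.3.3 on log2(TPM + 1), two-sided, with a mean-variance trend and without a replicate block. P-values were adjusted by Benjamini-Hochberg over all tested genes, and the threshold for a call was an adjusted 0.05. The added 1 TPM makes fold changes of low genes too small. Of the 8414 genes of at least 20 TPM, 6 were not tested for lack of values, and 7890 (93.8%) matched a RefSeq symbol. The interaction used all 16 libraries. Single values were compared by exact permutation, whose smallest p with 4 against 4 is 0.0286.

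TPM values of a library moved in whole steps, and read counts were recovered from them for 35588 genes (99.2%), with a largest distance of 0.00861 from a whole read. Of 117 snoRNA genes, 116 (99.1%) had the RefSeq length. These reads give the depth, and the intervals they allow cover counting error only. The background level is the mean of 1104 olfactory and 326 vomeronasal receptor genes, trimmed by 10% at each end.

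Genes are named where they were called, were among the 12 largest differences each way without overlap (short RNA, predicted and receptor family genes left out), had the lowest p or the highest level of a list, or are one of 7 microglial genes of general interest. Members of lists beyond these, with Olfr111, Mir6395 and Clic6, were named after their values were seen. The members and lists were chosen with earlier results of these data known. That libraries of a group came from separate pools rests on the labels and on the description of replicates as pools of 3 mice. P-values measure the spread between these libraries. The scripts were tested on simulated data, with 50 genes changed at each size between old and young Aβ42+ libraries. The fit called 0% of those changed by a log2 fold of 0.5 and 10% at 1. It called 68% at 2 and 92% at 3, and it gave 13 false calls. Most changes of 1 or less were thus missed there. Other scalings, filters, pseudocounts, left-out libraries, voom on recovered reads and RefSeq promoters were used as described in the text. The result of 1 gene is not reported here.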

Additional observations from a re-analysis of the deposited data

Results flagged for a closer look

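In 158 groups of 4 libraries (79 named genes, each age), 11 held a library that stood apart from the other 3 by Dixon's limit, and chance alone marks about 1 in 20 groups. Old Aβ42+ replicate 1 stood apart for Ms4a3 (75.9 TPM against 22.8 to 24.4 TPM), for the choroid plexus gene Clic6 (184 TPM against 21.9 to 31.2 TPM) and for Mir6395 (11.7 TPM against 0 TPM, 1 read). Old replicate 2 stood apart for Mir7673 (112 TPM against 20.2 to 33.8 TPM) and for Psmb9 (54.8 TPM against 59.5 to 60.3 TPM), and old replicate 3 for Csf1r (85.5 TPM against 124 to 130.3 TPM). Young replicate 3 was low for Fam83g (88.1 TPM against 127 to 135 TPM), C3ar1 (486 TPM against 539 to 547 TPM) and Wasl (63.9 TPM against 91.2 to 93.1 TPM). Young replicate 4 was low for Mrgpra2a (4.14 TPM against 8.66 to 9.43 TPM) and Hspb1 (609 TPM against 712 to 728 TPM).

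Without the pool as a block, the age difference itself differed between Aβ42+ and Aβ42- cells for Mir181b-2 (interaction 8.09 on the log2 scale, adjusted p = 0.0359 by limma) and for Mir6395 (-8.79, adjusted p = 0.0433). Both rest on few reads. With the pool as a block, 2512 members were called (29.9%, against 36.9% of all tested genes).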

How the results depend on the processing

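The number of members called (3) was 21 with all 16 libraries in the fit, 0 with the replicate block and 0 with voom on recovered reads, 6 of genes of at least 10 TPM, 1 of genes of at least 50 TPM, and 0 to 39 with 1 library left out. It was 601 without both replicates 3, the libraries of highest background, an alternative chosen after seeing the data, as was voom. Among the 601 were 1 of the 3 called genes, 38 of the 39 called without old replicate 3 and 18 of the 21 called with all libraries. The cause of these differences was not tested.

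Members higher at an unadjusted p under 0.05 (637) numbered 255 with upper quartile factors, 1080 with TMM factors, 978 with members scaled to 1 total, 385 with the background subtracted, 403 without a mean-variance trend, 1515 with the replicate block, 1443 without both replicates 3, 1008 from 10 TPM, 233 from 50 TPM, and 405 to 1079 with 1 library left out. Members lower (1299) numbered 656 without the trend, 2708 with the replicate block, 2422 without both replicates 3, 818 from 50 TPM, and 544 to 1862 with 1 library left out. The higher share of these was 32.9%, against 18.4% with upper quartile factors, 43.4% with TMM factors, 44.0% with voom and 48.2% without old replicate 3. The median of the members (-0.13) was -0.35 with upper quartile factors and -0.20 to -0.03 with 1 library left out, and the difference in the members' share of the total lay between -9.22 and -1.52 percentage points.

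Calls for the interaction (2) numbered 1 with 0.1 TPM added, 1 without the trend, 0 with a mean of at least 5 TPM, TMM factors, members scaled to 1 total, the background as a covariate or genes of at least 50 TPM, 2512 with the replicate block of the pool, and 0 to 4 with 1 library left out.

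Of 1649 pairs of a named gene and an alternative, 1581 kept direction and side of the threshold, 26 lost and 37 gained a call, and 5 changed direction, all of Tyrobp (-0.22 with upper quartile factors, and -0.053 to 0.12 with 1 library left out). Same-numbered young and old libraries correlated at 0.61, 0.06, 0.51 and 0.06 in their deviations from the group means over 8408 genes, which falls short of 4 pairs over 0.1. Depth and background ranked alike by number in both ages, so the numbers may share something that was not tested. Whether they pair the libraries is uncertain. Recovered depths of 1920495 to 5321398 reads leave most short RNA genes with 10 reads or fewer.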
